A study of Mus musculus with 10 samples.

Results

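The genes of chylomicron assembly were examined in RNA-seq of mouse proximal jejunum, the upper fat-absorbing stretch of the small intestine. The set was given by name and holds 10 of the 24368 genes in the table: Apob, Mttp, Tm6sf2, Pla2g12b, Apoa1, Apoa4, Apoc3, Sar1b, Surf4 and Creb3l3. All 10 were found and all passed the filter on low values. There were 5 libraries labelled cKO, from mice in which the RNA-binding protein HuR (gene Elavl1) was conditionally deleted in the intestinal epithelium, and 5 labelled WT, from their wild-type littermates. The labels give 1 library per title and no mouse age, diet or fasting state, and no source used here gives the Cre driver or the deleted exons. The label title numbers are 1 to 5 for cKO and 1, 3, 4, 5 and 6 for WT.

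Chylomicrons are the particles in which enterocytes send absorbed fat into the lymph. Apolipoprotein B is built into the particle while microsomal triglyceride transfer protein loads it with lipid in the endoplasmic reticulum, smaller apolipoproteins coat its surface, and COPII coats carry it towards the Golgi. In the intestine Apob messenger RNA is edited so that a shortened protein is made, and loss of APOB, MTTP or SAR1B function in people leads to inherited fat malabsorption.

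The libraries held between 16063987 (cKO 1) and 18927440 (cKO 5) reads, recovered from values that hold whole reads over 1 size factor per library. Mitochondrial genes took 2.80% to 9.48% of the reads in cKO libraries and 2.69% to 5.88% in WT libraries, with the highest share in cKO 1. The clock gene Per2 stood at 12.7 in cKO 3 and 16.0 in cKO 5, against 342 to 526 in the other cKO libraries and 529 to 749 in WT libraries, so the fold changes, the counts of members and the ratios are also given without cKO 3 and cKO 5. Elavl1 did not separate the groups, at 556 to 725 normalised reads in cKO and 631 to 709 in WT (limma adjusted p = 0.798). Reads summed over a gene cannot check a deletion of some of its exons, so every direction given here follows the labels. In these bulk samples, fewer cells of a type and less RNA per cell cannot be told apart.

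Levels per length of transcript, as normalised reads per kilobase of the gene length in the table, put these genes among the most abundant of the jejunum. Apoa1 averaged 143557 ± 52686 per kilobase in cKO and 213613 ± 43960 in WT (SD, n = 5 each), and ranked 2 among the 14062 genes tested in WT. Apoa4 averaged 41402 ± 11406 per kilobase in cKO and 72960 ± 9634 in WT (SD, n = 5 each), at rank 13. Mttp, Apoc3, Apob and Sar1b came next at ranks 73, 75, 80 and 100 in WT, followed by Creb3l3 (137), Surf4 (199), Tm6sf2 (263) and Pla2g12b (487). Neighbours in this order overlapped in their WT values for Mttp and Apoc3, Apoc3 and Apob, and Apob and Sar1b, and did not overlap for the other pairs of neighbours. The order of Apoc3, Apob and Sar1b was not kept in cKO, where Apob was above Sar1b in 1 of 5 libraries, against 5 of 5 WT libraries. Together the 10 genes took 3.27% ± 0.348 of all reads in cKO and 4.13% ± 0.308 in WT (SD, n = 5 each).

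No member passed the test across all genes, a limma fit on log2(value + 1) with adjustment over 14062 genes, in which 1.32% of the genes passed an adjusted p of 0.05 (0.882% lower and 0.441% higher in cKO). At an unadjusted p of 0.05, 5 of the 10 members were lower and 0 higher in cKO, beside 10.1% of all genes tested lower and 8.46% higher. These 5 were Apoa4, Apoc3, Tm6sf2, Creb3l3 and Apoa1. With 1 library left out the count of members lower ran from 3 to 6. The count was 3 without WT 5, WT 6, cKO 3 or cKO 5 in turn. Lower beside these were 1213 of 14058, 1144 of 14065, 1011 of 14038 and 1314 of 14078 genes. The count was 6 without cKO 4, beside 1841 of 14083 genes. Without cKO 3 and cKO 5 together it was 2 lower and 0 higher, beside 6.71% of all genes lower and 5.69% higher. Fitted levels were lower in cKO for 8 of the 10, against 49% of all genes tested, and the median log2 fold change of the 10 was -0.47, beside 0.01 over all genes tested. Without cKO 3 and cKO 5 this median was -0.27, again beside 0.01. The edgeR quasi-likelihood test with TMM factors also called 0 members, where it called 1.29% of all genes, 0.775% lower and 0.512% higher. At an unadjusted edgeR p of 0.05, 3 members were lower and 0 higher, beside 1256 and 1412 of 14062 genes. DESeq2 called 2, Apoa4 (adjusted p = 0.00623) and Apoc3 (adjusted p = 0.0365), both lower in cKO, where it called 5.33% of all genes, 2.95% lower and 2.38% higher. In the authors' deposited table the same 2 members have an adjusted p under 0.05 (0.0486 for Apoa4 and 0.0151 for Apoc3), beside 2.49% of its genes in either direction and 1.53% lower in cKO. The means in that table cover 6 columns per group, 1 more than the libraries used here.

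**Figure D1:**
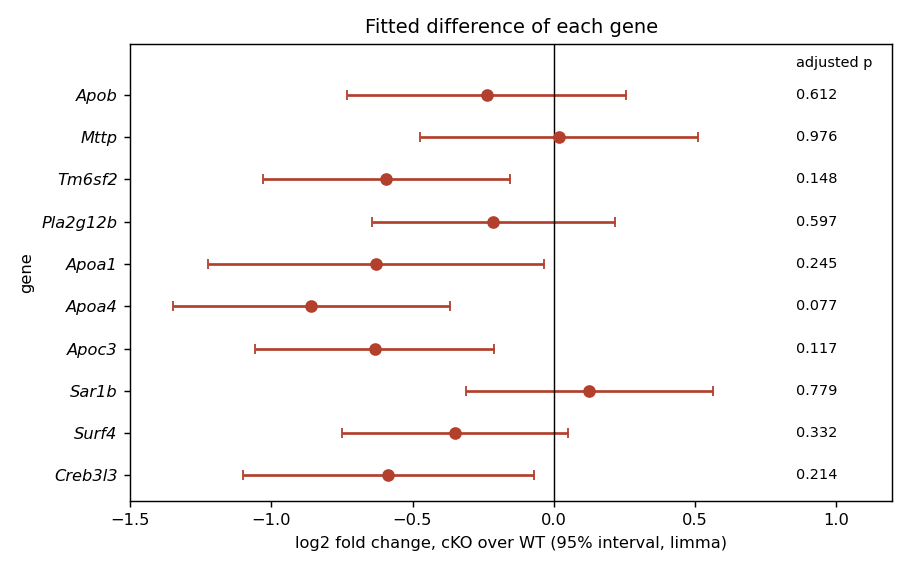
Log2 fold change of each gene, cKO over WT, as points with 95% intervals from limma (n = 5 each); the adjusted p over all genes tested is printed at the right. The intervals of Apoa4, Apoc3, Tm6sf2, Apoa1 and Creb3l3 lie below 0, and the adjusted p-values run from 0.077 for Apoa4 to 0.976 for Mttp.

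Apob encodes the structural protein of the particle (chromosome 12, 7977648 to 8016835, mm10, plus strand). It stood at 226227, 102283, 120737, 146831 and 158111 normalised reads in cKO 1, 2, 3, 4 and 5, against 206994, 153041, 154832, 161994 and 185176 in WT 1, 3, 4, 5 and 6. The groups overlapped, and cKO held both the highest and the lowest value. The log2 fold change was -0.24 ± 0.23 SE (95% interval -0.73 to 0.26, limma adjusted p = 0.612). For Apob this value was -0.40 without cKO 1, -0.11 without cKO 2 and -0.19 without cKO 3 and cKO 5. Mttp encodes the large subunit of the lipid transfer protein that loads apolipoprotein B (chromosome 3, 138089854 to 138144968, minus strand). It stood at 125842, 58703, 66966, 94809 and 99811 in cKO 1 to 5, against 109333, 82035, 73478, 81676 and 81859 in WT 1, 3, 4, 5 and 6. Its cKO values lay on both sides of the WT range, and its log2 fold change was 0.02 ± 0.23 SE (95% interval -0.47 to 0.51, limma adjusted p = 0.976). The sign of this value for Mttp turned without WT 4, cKO 1, cKO 4 or cKO 5, and the value was 0.07 without cKO 3 and cKO 5.

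Apob and Mttp followed each other across libraries more closely than either followed the apolipoproteins of the cluster described below. The root mean square difference of their log2 profiles, each centred on its mean over the 10 libraries, was 0.16. Against Apoc3, Apoa1 and Apoa4 it was 0.46, 0.49 and 0.53 for Apob and 0.55, 0.57 and 0.61 for Mttp. For each of Apob and Mttp, the 3 most like genes outside the set, given below, were closer than 0.16. Among the 45 pairs of members only Creb3l3 and Tm6sf2 were closer (0.158, against 0.160). These distances are taken over the same 10 libraries and describe likeness, with no test.

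Within each library, Mttp was higher relative to Apob in cKO. The ratio of normalised reads of Mttp to Apob was 0.556, 0.574, 0.555, 0.646 and 0.631 in cKO 1, 2, 3, 4 and 5, against 0.528, 0.536, 0.475, 0.504 and 0.442 in WT 1, 3, 4, 5 and 6. All 5 cKO ratios were above all 5 WT ratios. On the log2 scale the mean was -0.76 ± 0.10 in cKO and -1.01 ± 0.12 in WT (SD, n = 5 each). The difference was 0.25 (two-sided exact permutation p = 0.00794, the smallest that 5 against 5 allows; adjusted p = 0.0317 over the 4 ratios tested). A ratio of reads within a library does not depend on the scaling between libraries, and it is no ratio of molecules, since the genes differ in length. The ratio shows unequal change and not which of the genes changed. Without cKO 4 or without cKO 5 the difference was 0.22 or 0.23 and the adjusted p 0.0635, and without cKO 3 and cKO 5 together it was 0.25 (exact permutation p = 0.0357, adjusted p = 0.143). The smallest p that 3 against 5 allows is 0.0179, too large for 1 of 4 ratios to pass on its own.

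**Figure D2:**
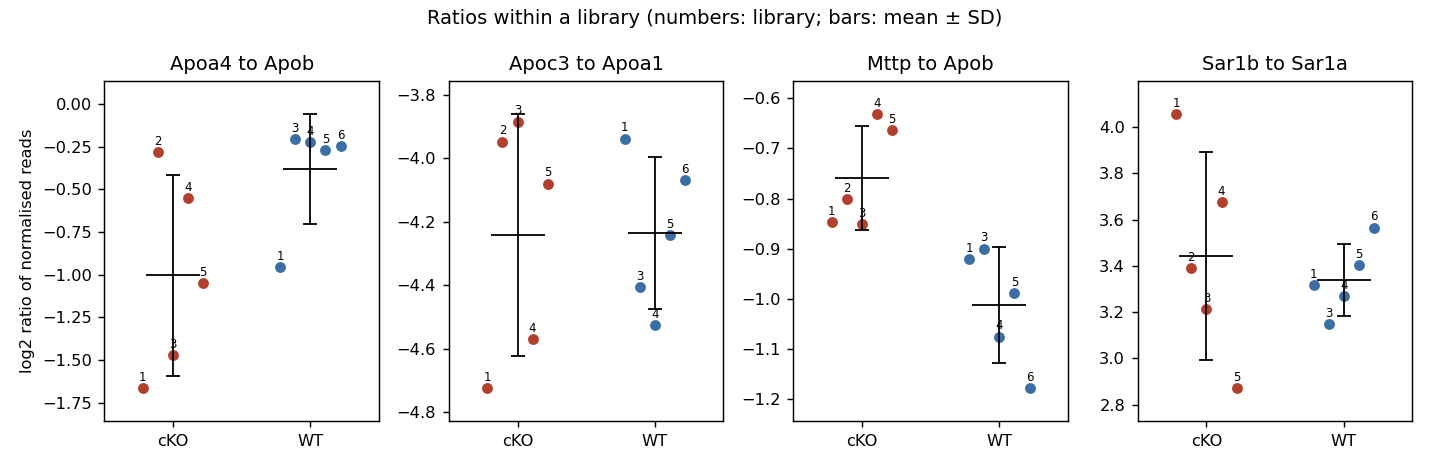
Log2 ratios of normalised reads of 4 pairs of genes within each library; points are libraries labelled by number, lines and bars are the mean ± SD (n = 5 each), cKO left and WT right. For Mttp to Apob the 5 cKO points lie above the 5 WT points; in the other 3 panels the groups overlap.

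The 3' untranslated regions of the members differ in AU-rich and U-rich stretches, the kind of sequence that HuR is known to bind. ATTTA and TTTNTTT were counted on the sense strand in 1 GENCODE M21 transcript per gene (GRCm38), with overlapping matches counted separately. The Mttp 3' region of 1201 bases holds ATTTA 8 times and TTTNTTT 6 times. The Apob region of 285 bases holds neither, nor do those of Apoa1 (64 bases), Apoa4 (169) and Apoc3 (172). Sar1b, Creb3l3, Tm6sf2 and Pla2g12b hold ATTTA once each and no TTTNTTT, and Surf4, with 1865 bases, holds 2 and 1. Of the 12805 genes tested that have such a region, 67.5% hold ATTTA and 66.8% TTTNTTT, with a median length of 1019 bases. Among regions within 20% of the length of Mttp's, 78.8% hold ATTTA and 77.6% TTTNTTT at least once. For the lengths of Apob, Apoa1, Apoa4 and Apoc3 the shares with ATTTA are 39.6%, 7.10%, 26.3% and 26.4%. Those with TTTNTTT are 34.3%, 8.39%, 22.8% and 23.2%, so most regions of these lengths lack each motif. A match is a description of letters and not a binding site. The sites below show the letters behind these counts. They are 5 of the 8 ATTTA and 2 of the 6 TTTNTTT matches of Mttp, and every match of the other members. Of the Mttp matches left out, the TTTNTTT at 458 and 463 lie between printed stretches, and the rest lie within them. Capitals mark 1 match each, the number is the first base of the match in the 3' region, and T stands for U.
Mttp ATTTA at 80: cagtgtttacatATTTAcctgtatttaaga
Mttp TTTNTTT at 439: agcaaaccattTTTCTTTtgttgttgttgt
Mttp TTTNTTT at 482: cttttcttctcTTTCTTTtacttttttttc
Mttp ATTTA at 586: ttaagaattaatATTTAtgttttctgatag
Mttp ATTTA at 884: aatttgactgcaATTTAtgcagtcaataaa
Mttp ATTTA at 1016: gcatttaaacatATTTAttagtaaagcaga
Mttp ATTTA at 1186: tgacaaataaacATTTAtaatttactga
Sar1b ATTTA at 300: aatataaaccatATTTAaaagctcatcatg
Creb3l3 ATTTA at 319: ggctggcctcagATTTAcagagctctacct
Tm6sf2 ATTTA at 201: ctcttcccatacATTTAataaaaccttctg
Surf4 TTTNTTT at 134: gttttgagaacTTTATTTgcagacacctga
Surf4 ATTTA at 1054: tctcagtcctgtATTTAaagttttctaaca
Surf4 ATTTA at 1662: ggtacttggcccATTTAccagcctcctgtg
Pla2g12b ATTTA at 360: ttgacacctcacATTTAataaagcacactt

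Tm6sf2 and Pla2g12b act in the lipidation of the particle. Tm6sf2, a membrane protein needed for the loading of triglyceride onto lipoproteins (chromosome 8, 70072924 to 70080066, plus strand), stood at 3437, 5567, 3148, 6887 and 4772 in cKO 1 to 5, against 6833, 6444, 7088, 6624 and 7476 in WT 1, 3, 4, 5 and 6. The WT values were tightly grouped and 4 of 5 cKO values lay below all of them, the exception being cKO 4. The log2 fold change was -0.59 ± 0.21 SE (limma adjusted p = 0.148), and -0.44 without cKO 3 and cKO 5. Pla2g12b, a catalytically inactive phospholipase-like protein of lipoprotein expansion in the mouse (chromosome 10, 59403660 to 59421976, plus strand), stood at 3101, 2116, 1385, 2533 and 1716 in cKO 1 to 5, against 2029, 2803, 2443, 2381 and 2504 in WT 1, 3, 4, 5 and 6. The groups overlapped, with a log2 fold change of -0.21 ± 0.20 SE (limma adjusted p = 0.597). This value for Pla2g12b was -0.07 without cKO 3, -0.36 without cKO 1 and 0.08 without cKO 3 and cKO 5.

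**Figure D3:**
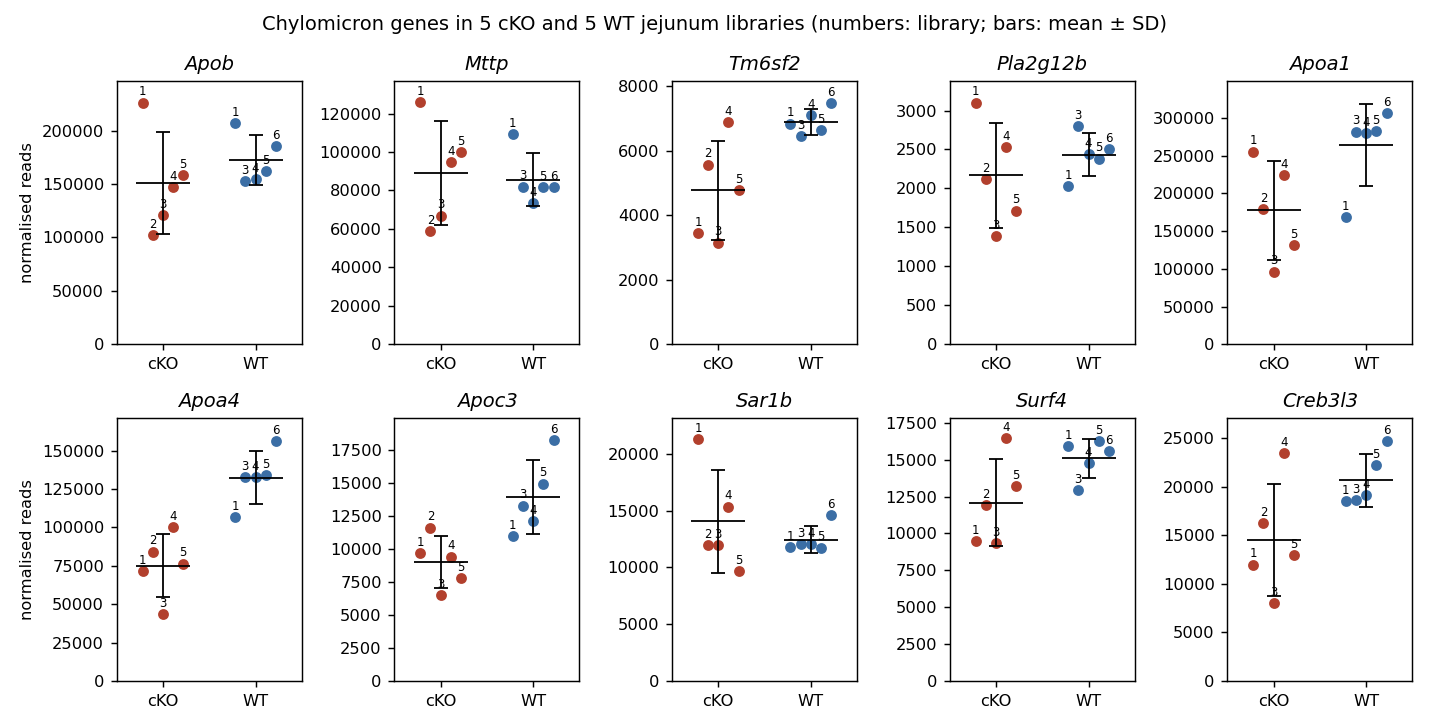
Normalised reads of each of the 10 genes, from 0 on each axis; points are libraries labelled by number, lines and bars are the mean ± SD (n = 5 each), cKO left and WT right. Apoa4 is the gene whose groups do not overlap, and the cKO points spread more widely than the WT points in most panels.

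The exchangeable apolipoproteins Apoa1, Apoc3 and Apoa4 lie in 14.88 kb of chromosome 9 (46228580 to 46243459). Their fitted levels were all lower in cKO, with differences from WT of -35.4% for Apoa1, -35.6% for Apoc3 and -44.8% for Apoa4. Apoa4, a surface apolipoprotein of chylomicrons whose intestinal expression follows fat intake (46240696 to 46243459, plus strand), stood at 71424, 84186, 43615, 100103 and 76397 in cKO 1 to 5, against 106687, 132637, 132600, 134150 and 156037 in WT 1, 3, 4, 5 and 6. Every cKO value lay below every WT value, which was the case for 1 of the 10 members, Apoa4, and for 3.01% of all genes tested (1.86% were higher in cKO without overlap). This was a log2 fold change of -0.86 ± 0.23 SE (95% interval -1.35 to -0.37, limma adjusted p = 0.0774). Apoa4 passed the limma threshold when values were scaled to 6 pan-epithelial genes (-0.77, adjusted p = 0.0252, where 0.668% of genes were called, 0.469% lower and 0.199% higher) and without cKO 4 (-0.97, adjusted p = 0.0307, where 4.34% were called, 3% lower and 1.34% higher). Over the other limma and edgeR alternatives its adjusted p ran up to 0.196, reached without cKO 3 and cKO 5 at a log2 fold change of -0.64. Gm47528, on the opposite strand, shares exonic bases with Apoa4 and averaged 687 normalised reads, and no source used here gives the strand setting of the counting.

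Apoc3, an inhibitor of lipoprotein lipase carried on chylomicrons (46232933 to 46235636, minus strand), stood at 9673, 11632, 6523, 9427 and 7780 in cKO 1 to 5, against 11011, 13297, 12147, 14963 and 18247 in WT 1, 3, 4, 5 and 6. The groups overlapped by cKO 2, which lay above WT 1. Its log2 fold change was -0.63 ± 0.20 SE (95% interval -1.06 to -0.21, limma adjusted p = 0.117), and -0.43 without cKO 3 and cKO 5. Apoa1, the main protein of high-density lipoprotein, which enterocytes also secrete (46228580 to 46230466, plus strand), stood at 255616, 179521, 96386, 224070 and 131587 in cKO 1 to 5, against 168788, 281996, 279802, 283013 and 306529 in WT 1, 3, 4, 5 and 6. WT 1 lay far below the other WT libraries and below 3 cKO libraries, while all 5 cKO values were below the WT mean. The log2 fold change of Apoa1 was -0.63 ± 0.28 SE (95% interval -1.22 to -0.03, limma adjusted p = 0.245), and it was -0.25 without cKO 3 and cKO 5. The log2 ratio of Apoc3 to Apoa1 averaged -4.24 ± 0.38 in cKO and -4.24 ± 0.24 in WT (SD, n = 5 each; difference -0.01, two-sided exact permutation p = 0.952). The sign of this difference turned when WT 1, WT 6, cKO 1 or cKO 4 was left out, and it was -0.18 without cKO 3 and cKO 5.

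Apoa4 relative to Apob, a surface protein relative to the structural one, was lower in 3 cKO libraries than in all WT libraries. The ratio of normalised reads was 0.316, 0.823, 0.361, 0.682 and 0.483 in cKO 1 to 5, against 0.515, 0.867, 0.856, 0.828 and 0.843 in WT 1, 3, 4, 5 and 6. The ratio in WT 1 lay apart from the other WT libraries and among the cKO values. The difference of the mean log2 ratios was -0.62 (two-sided exact permutation p = 0.0556, adjusted p = 0.111 over the 4 ratios). It was -0.80 without cKO 2 (adjusted p = 0.0476) and -0.45 without cKO 3 and cKO 5 (adjusted p = 0.393), by the same exact test.

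Of 5 markers of the villus tip, where Apoa4 is strongly expressed, 4 had lower fitted levels in cKO and 0 passed the test (median -0.63), and their summed level was 55482 to 123296 in cKO and 113125 to 150859 in WT. At an unadjusted p of 0.05, 3 of the 5 were lower, beside 10.1% of all genes tested, and the log2 fold changes ran from -1.82 for Nt5e to 0.19 for Egfr. Markers of the crypt, the base from which the villus is renewed, stood the other way: 4 of 4 tested had higher fitted levels in cKO (median 0.46) and 0 passed the test. Their summed level was 960 to 4634 in cKO and 986 to 1645 in WT, and 0 were higher at an unadjusted p of 0.05 (0 to 3 over the alternatives). The part of villus tip and crypt in the values of the members was not tested. Of 8 enterocyte markers 7 had lower fitted levels (median -0.20, 0 past the test), and 5 of 8 in edgeR with TMM factors. Without cKO 3 and cKO 5, 3 of the 8 were lower and 5 higher (median 0.05). At an unadjusted limma p of 0.05 with all libraries, 2 were lower and 0 higher, beside 10.1% and 8.46% of all genes. The 8 summed to 643568 to 1209284 in cKO and 746500 to 940374 in WT. The 6 pan-epithelial genes summed to 123267 to 328063 in cKO and 230846 to 283349 in WT. With values scaled to these 6 genes, the log2 fold change was -0.54 for Apoa1, -0.77 for Apoa4 and -0.55 for Apoc3, beside a median of 0.10 over all genes. Liver is the other main source of apolipoproteins, and of the 5 hepatocyte markers found only Trf passed the filter, at 12.8 to 33.1 in cKO and 7.98 to 20.3 in WT (log2 fold change 0.60, limma adjusted p = 0.359). The highest value of Alb was 15.2 (WT 6) and Ahsg was at 0 in all 10 libraries; the markers together summed to 22.4 to 49.6 in cKO and 21.5 to 48.7 in WT. Of 5 markers of lymphatic endothelium, the vessels that take up chylomicrons, 1, Lyve1, passed the test (log2 fold change 1.63, limma adjusted p = 0.00272). The 5 summed to 818 to 1592 in cKO and 393 to 554 in WT. Without Lyve1 the other 4 summed to 195 to 548 in cKO and 169 to 240 in WT, with overlap. Of the 5 markers, 4 had higher fitted levels in cKO (median 0.81). Lyve1, Pdpn and Prox1 were higher at an unadjusted p of 0.05, beside 8.46% of all genes. Log2 fold changes were 0.47 for Pdpn, 0.84 for Prox1, 0.81 for Flt4 and -0.10 for Ccl21a. Without cKO 3 and cKO 5 the markers' median was 0.42, and 2 were higher at that p. The part of these lymphatic markers in the values of the members was not tested.

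Sar1b and Surf4 serve the export of the particle from the endoplasmic reticulum. Sar1b, the GTPase that starts the COPII coat (chromosome 11, 51763687 to 51791925, plus strand), stood at 21301, 12001, 12001, 15374 and 9687 in cKO 1 to 5, against 11798, 12056, 12056, 11754 and 14630 in WT 1, 3, 4, 5 and 6. The cKO values lay above, within and below the WT range. Its log2 fold change was 0.13 ± 0.21 SE (95% interval -0.31 to 0.56, limma adjusted p = 0.779), and it was -0.04 without cKO 1, 0.08 without cKO 4, 0.25 without cKO 5 and 0.35 without cKO 3 and cKO 5. Relative to its paralog Sar1a, the log2 ratio averaged 3.44 ± 0.45 in cKO and 3.34 ± 0.16 in WT (SD, n = 5 each; two-sided exact permutation p = 0.659), and the difference of 0.10 became -0.05 without cKO 1 and 0.37 without cKO 3 and cKO 5. Reads shared between these paralogs could be split by the counting. Surf4, a cargo receptor for apolipoprotein B particles (chromosome 2, 26920040 to 26933928, minus strand), stood at 9480, 11933, 9327, 16464 and 13181 in cKO 1 to 5, against 15941, 12927, 14776, 16249 and 15572 in WT 1, 3, 4, 5 and 6. The lowest 3 values were all cKO and the highest was cKO 4. Its log2 fold change was -0.35 ± 0.19 SE (95% interval -0.75 to 0.05, limma adjusted p = 0.332), and -0.29 without cKO 3 and cKO 5.

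Creb3l3 encodes CREB-H, a membrane-bound transcription factor that in the mouse switches on apolipoprotein genes including Apoa4 (chromosome 10, 81084324 to 81098874, minus strand). It stood at 11972, 16269, 8040, 23430 and 12960 in cKO 1 to 5, against 18522, 18574, 19157, 22235 and 24721 in WT 1, 3, 4, 5 and 6. As for Tm6sf2, 4 of 5 cKO values lay below all WT values and cKO 4 lay within them. Its log2 fold change was -0.59 ± 0.24 SE (95% interval -1.10 to -0.07, limma adjusted p = 0.214). For Creb3l3 it was -0.39 without cKO 3 and -0.31 without cKO 3 and cKO 5 (limma adjusted p = 0.580). Without cKO 4 the limma test called 3 members lower, Apoa4, Creb3l3 (-0.78, adjusted p = 0.0475) and Tm6sf2 (-0.74, adjusted p = 0.0401), beside 3% of all genes. Without cKO 3 and cKO 5 it called 0, beside 0.399% of all genes, 0.214% lower and 0.185% higher. Cidec, a lipid droplet protein described as a CREB-H target in mouse liver, had a log2 fold change of -0.33 (limma adjusted p = 0.446), while the described targets Apoa5 and Apoc2 were under the filter, at no more than 5.99 (Apoa5) and 12.994 (Apoc2) normalised reads in any library.

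**Figure D4:**
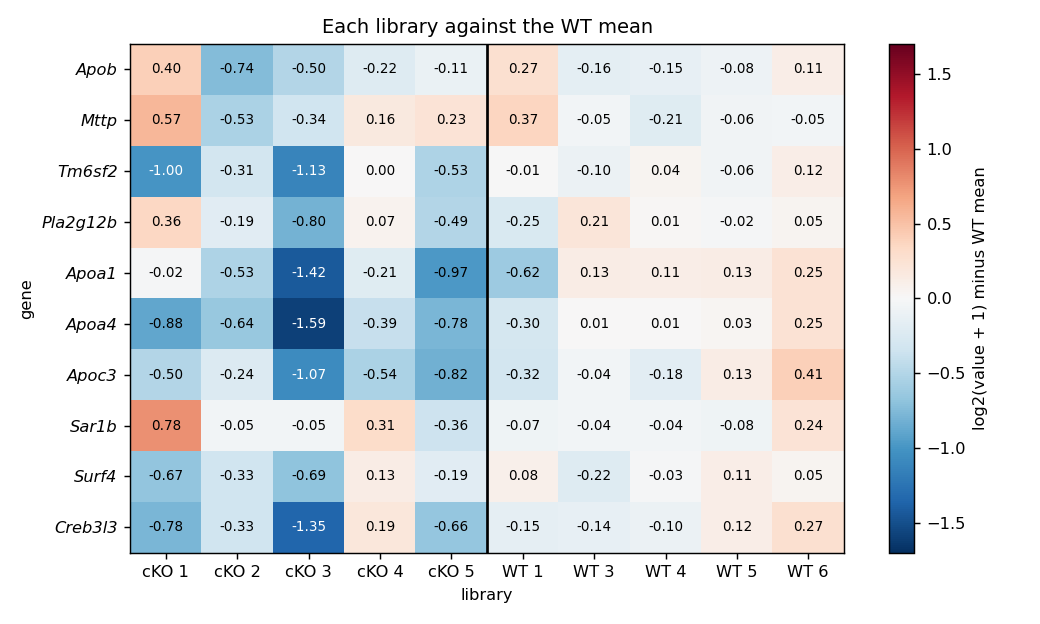
Log2(value + 1) of each gene in each library minus the mean of the 5 WT libraries; blue is below and red above that mean, and the line parts cKO (left) from WT (right). In cKO 3 all 10 genes are below the WT mean, while in cKO 1 Apob, Mttp, Sar1b and Pla2g12b are above it and Apoa4, Creb3l3 and Tm6sf2 below.

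The members varied more among cKO than among WT libraries. The SD of log2 values was larger in cKO for 10 of 10 members, against 71% of all genes tested. The median SD was 0.45 in cKO and 0.19 in WT for the members, and 0.40 in cKO and 0.28 in WT for all genes tested. In cKO 3, 7 of the 10 members had their lowest value of all libraries, and the median of the members relative to the WT mean was -0.94 on the log2 scale. The share of all genes lowest in cKO 3 was not counted, so this is not shown to be particular to the members. The summed pan-epithelial, enterocyte and villus tip markers were also lowest in cKO 3 (123267, 643568 and 55482), while the summed crypt markers were not. In cKO 4 the median of the members was 0.03. In cKO 1 the members split, with Sar1b (0.78), Mttp (0.57), Apob (0.40) and Pla2g12b (0.36) above the WT mean and Tm6sf2 (-1.002), Apoa4 (-0.88), Creb3l3 (-0.78), Surf4 (-0.67), Apoc3 (-0.50) and Apoa1 (-0.02) below it. The mitochondrial share was highest in that library, and its part in these values was not tested.

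Outside the set, the genes whose centred log2 profiles over the 10 libraries were most like those of 4 members were sought among 8561 genes with a mean of at least 100. For Mttp these were Mgam2-ps (root mean square difference 0.058), Heph (0.118) and Tapt1 (0.130), against a median of 0.44 over the candidates. For Apob they were Slx4ip (0.113), Hsd17b12 (0.122) and Tm9sf2 (0.137). For Creb3l3 they were Sh3gl1 (0.0945), Cldn15 (0.102) and Slc25a45 (0.112), and for Apoa4 Ppp1r16a (0.115), Bst1 (0.124) and Slc23a4 (0.136). Ppp1r16a and Bst1 passed the limma test (adjusted p = 0.0326 each), with log2 fold changes of -0.86 and -0.89 beside the -0.86 of Apoa4. The likeness was taken over both groups, so a fold change near that of Apoa4 follows from the choice and is no separate result.

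Among 61 other genes of the pathway, 56 passed the filter and none was called in either direction by limma. At an unadjusted p of 0.05, 2 were higher and 6 lower, beside 8.46% of all genes tested higher and 10.1% lower. Lower fitted levels were found for 49% of all genes tested, to be read beside the counts that follow. Of 10 lipidation genes 5 had lower fitted levels. Hspa5, the chaperone BiP, averaged 24812 ± 6901 in cKO and 13752 ± 4427 in WT (SD, n = 5 each), at a log2 fold change of 0.87 (limma adjusted p = 0.0830), and Cideb, which acts in lipoprotein lipidation, had a log2 fold change of -0.48 (limma adjusted p = 0.275). DESeq2 called 2 of the 56, Hspa5 and Nr1h4, both higher. The 7 other genes of the apolipoprotein list that passed the filter all had lower fitted levels (median -0.24). That list includes the gene of an apolipoprotein receptor, and only 3 of the 7 averaged at least 50 normalised reads. Without cKO 3 and cKO 5, 3 of the 7 were lower and 4 higher (median 0.01), beside 6849 of 14049 genes lower. Values in the main limma fit were -0.31 for Apol7a (adjusted p = 0.410) and -0.40 for Apoe (adjusted p = 0.437). Of 25 export genes 17 had lower fitted levels; Mia2, which helps load large cargo such as lipoproteins into COPII carriers, had -0.62 (limma adjusted p = 0.151) and the COPII coat gene Sec31a -0.57 (limma adjusted p = 0.197). Of 14 regulators 11 had lower fitted levels; the bile acid receptor gene Nr1h4 had 0.76 (limma adjusted p = 0.126) and Prdm16 -0.78 (limma adjusted p = 0.145). Hnf4a, a main activator of apolipoprotein genes in gut and liver, averaged 17195 ± 3290 in cKO and 16282 ± 2732 in WT (SD, n = 5 each), at a log2 fold change of 0.08 (limma adjusted p = 0.868).

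Promoter windows of RefSeq (GRCm38.p6, 250 bases before to 50 after a start site) were found for 8 of the 10 members, with 9 windows in all; Apoc3 and Tm6sf2 had no entry. These were searched on both strands for 5 motifs that resemble parts of known sites, none of which overlapped another in these windows. Letters of a CREB factor site, TGACG, occurred in 20.8% of 32851 windows of the same length. Letters of an HNF4 site, CAAAGTC, occurred in 4.44%, and those of a nuclear receptor site, AGGTCA, in 16.3%. The letters AGATAA, as bound by intestinal zinc finger factors such as that encoded by Gata4, occurred in 11.2%. For HNF1 the letters were GTTAAT, found in 7.10%. Only 2 windows of the members held any, and they are shown for that reason, with matches in capitals. Exact letters alone were sought, so a window with no match can still hold variants of these sites. The Mttp window (chr3:138143369-138143668, minus strand) holds TGACG on its reverse strand. Of 2 windows of Creb3l3, the one at chr10:81092542-81092841 (minus strand) holds the CREB, nuclear receptor and zinc finger motifs on its own strand and the HNF4 motif on the reverse strand. Both windows lie within the gene as given above, at start sites downstream of its outermost one. The other Creb3l3 window (chr10:81098823-81099122), at the outermost start, holds none of the 5.
Mttp: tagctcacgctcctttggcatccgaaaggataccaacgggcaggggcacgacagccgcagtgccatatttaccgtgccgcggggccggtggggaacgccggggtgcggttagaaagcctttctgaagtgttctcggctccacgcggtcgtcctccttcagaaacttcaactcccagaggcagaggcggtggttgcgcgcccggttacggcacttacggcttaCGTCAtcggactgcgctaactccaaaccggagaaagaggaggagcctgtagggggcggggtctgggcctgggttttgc
Creb3l3: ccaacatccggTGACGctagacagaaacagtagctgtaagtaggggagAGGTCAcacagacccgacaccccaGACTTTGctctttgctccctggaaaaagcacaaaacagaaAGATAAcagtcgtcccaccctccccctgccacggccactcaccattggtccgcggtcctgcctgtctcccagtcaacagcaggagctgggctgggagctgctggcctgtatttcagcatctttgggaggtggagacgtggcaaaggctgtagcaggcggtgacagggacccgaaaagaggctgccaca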

How the data were processed

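RNA-seq of proximal jejunum total RNA was analysed in 5 cKO and 5 WT libraries, grouped by the titles in the labels. The submitters' processing notes name CASAVA, HISAT2 2.0.5, featureCounts 1.5.0-p3, DESeq2 1.20.0 and mm10; no source used here gives the annotation release, the strand setting or the handling of multiple matches. The deposited signal per gene is a read count divided by a size factor, as found from the values: 100% of values in each library were whole multiples of its smallest step within 0.001, and reads were recovered from them. The authors' deposited log2 fold changes and p-values were used only where named; 2 further per-sample columns match no label and were not used.

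Genes averaging at least 10 were kept (14062 of 24368), their values taken as log2(value + 1), and limma 3.58.1 (R 4.3.3) was fitted with genotype alone, with intensity trend and robust moderation and Benjamini-Hochberg adjustment over all genes. Fold changes are on that scale, which understates low genes. The steps were tested on simulated data. Alternatives were edgeR 4.0.16 and DESeq2 1.42.0 on recovered reads, other scalings, filters and pseudocounts, and left-out libraries. The 4 ratios within libraries were tested by exact permutation over every relabelling, in Python 3.11.15. Transcripts and coordinates came from GENCODE M21 (GRCm38), where all 10 members have the coordinates of the table; 1 transcript per gene was taken, with a 3' region, APPRIS principal status, the longest coding part and the greatest length preferred in that order. Figures used matplotlib 3.10.9.

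The members, gene lists and tests were chosen with earlier results of these data known. Named genes were all members and the 2 genes of smallest p of each partner list. The 3 most like profiles for Apob, Mttp, Apoa4 and Creb3l3 were also named. Hnf4a, Nt5e, Egfr, Trf, Lyve1, Pdpn, Prox1, Flt4 and Ccl21a were named after their values were seen. Whether same-numbered mice share a litter is not stated in the labels. The limma p-values weigh the difference between groups against the spread between these libraries, and the permutation p-values come from relabelling them.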

Additional observations from a re-analysis of the deposited data

Results flagged for a closer look

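With groups of 5 examined for a library far from the rest, 4 of 28 groups of values stood out, where chance gives about 1 in 20. In 3 of the 4 the library was WT 1. Mttp was 109333 in WT 1, against 82035 in the next WT library. Apoa1 was 168788 in WT 1, against 279802 in the next. The log2 ratio of Apoa4 to Apob was -0.96 in WT 1, against -0.27 in the next. Sar1b was 14630 in WT 6, against 12056 in the next WT library. No cause was tested.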

How the results depend on the processing

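The log2 fold change stayed below 0 in all 24 alternative fits for 7 of the 10 members; it turned for Pla2g12b without cKO 3 and cKO 5 (0.0772), for Sar1b without cKO 1 (-0.0368) and for Mttp with 1 library left out (range -0.12 to 0.15). The number of genes called was 186; it was 750 in DESeq2, 94 scaled to pan-epithelial genes, 42 without trend and robust moderation, 56 without cKO 3 and cKO 5, and 30 to 611 with 1 library left out. Members called were 0, but 2 in DESeq2, 1 scaled to pan-epithelial genes and 0 to 3 with 1 library left out. Partner genes called were 0, but 2 in DESeq2, 1 in edgeR with library totals, 1 with totals that leave out mitochondrial and top genes, and 0 to 1 with 1 library left out. The median over all genes was 0.14 in the fit with library totals. It was 0.10 with those reduced totals, with upper-quartile factors and with values scaled to pan-epithelial genes. Values of members in these fits are to be read against it. With library totals Apob was -0.12, Surf4 -0.22, Pla2g12b -0.11 and Sar1b 0.24, and on the 8 libraries below Apob was -0.08. The members' median ran from -0.56 to -0.33 with 1 library left out and was -0.27 without cKO 3 and cKO 5. The Mttp to Apob difference was 0.21 to 0.28 with 1 library left out and 0.25 without cKO 3 and cKO 5, where 3 against 5 libraries allow no p under 0.0179 and the adjusted p was 0.143; Apoa4 to Apob ran from -0.80 to -0.46, Apoc3 to Apoa1 from -0.0943 to 0.12 and Sar1b to Sar1a from -0.0528 to 0.24. The cause of these shifts was not tested. The replicate numbers 1, 3, 4 and 5 occur in both groups, and the deviations of same-numbered libraries correlated between -0.11 and 0.12 across genes, so the numbers are not shown to pair libraries. With a replicate block on these 8 libraries 130 genes were called, against 88 with no replicate block, with 0 members in each; in the paired sign-flip test of the 4 pairs the Mttp to Apob difference was 0.22 (exact p = 0.125, the smallest that 4 pairs allow). With 5 libraries a group, the 95% intervals of the members span 0.80 to 1.19 on the log2 scale.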
